A study of Mus musculus with 6 samples.

Results

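The core circadian clock loop was followed through 10 genes, chosen by symbol after the log2 folds of Tsc1-null EV over WT EV for Arntl, Dbp, Hlf and Nfil3 had been seen: the activators Arntl, Clock and Npas2, and the repressors Per1, Per2, Per3, Cry1, Cry2, Nr1d1 and Nr1d2. All 10 were among the 24054 gene rows of the table, and all 10 lay above the minimum mean level for testing. RNA was sequenced from lungs of 6 female SCID mice, a strain that lacks functional B and T cells. In 3 of them (Tsc1-null EV) the tail vein had been injected with labelled extracellular vesicles (EVs) of E15.5 mouse neural progenitors lacking Tsc1, which encodes a brake on the growth kinase mTORC1. In the other 3 (WT EV) the vesicles came from wild-type progenitors. All vesicles carried CD9, CD63 and CD81, and all mice then received 500000 rat ELT3 cells, a Tsc2-deficient uterine leiomyoma line, by vein 48 h later. Lungs were assessed 72 h after the cells, and each library carries its own sample number. No lung without vesicles or without ELT3 cells was analysed here, so each value stands only against WT EV, and rat reads cannot be told from mouse reads.

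The clock is a transcriptional feedback loop that runs in nearly every cell. BMAL1, encoded by Arntl, pairs with CLOCK or NPAS2 and switches on genes through E-box elements, among them the Per and Cry genes, whose proteins return to the nucleus and block the pair. A second arm runs through Nr1d1 and Nr1d2, which encode the nuclear receptors REV-ERB alpha and beta. These receptors silence Arntl and Npas2 through ROR elements (ROREs), sites they share with the ROR activators. In mouse tissues, lung included, Nr1d1 and the output factor Dbp peak roughly opposite to Arntl and Npas2, the Per genes follow Nr1d1, Cry1 comes later, and Clock itself cycles weakly.

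The regulatory letters of this loop are shown for Arntl, Nr1d1, Cry1, Per3 and Per1, from RefSeq promoter windows of GRCm38.p6 (250 bases before and 50 after an annotated start). These genes were picked from the members whose windows held a motif match, and Nr1d2 held none. Windows were found for 9 of the 10 members, and Per2 was without one. Each line reads 5′ to 3′ on the gene's strand, with the matched motif in capitals.
Arntl, chr7:113207528-113207557, plus strand: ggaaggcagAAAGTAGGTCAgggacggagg
Nr1d1, chr11:98775378-98775427, minus strand: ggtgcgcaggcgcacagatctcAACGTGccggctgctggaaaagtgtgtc
Cry1, chr10:85185095-85185144, minus strand: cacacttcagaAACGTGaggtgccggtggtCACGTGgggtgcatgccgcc
Per3, chr4:151044806-151044880, minus strand: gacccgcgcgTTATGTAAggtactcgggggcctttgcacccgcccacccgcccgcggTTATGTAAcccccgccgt
Per1, chr11:69098773-69098942, plus strand: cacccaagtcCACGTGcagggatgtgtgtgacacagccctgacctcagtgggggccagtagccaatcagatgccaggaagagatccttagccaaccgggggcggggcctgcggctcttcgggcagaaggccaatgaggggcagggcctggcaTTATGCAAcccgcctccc

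The capitals in Arntl mark a match to the RORE consensus, 26 bases after the start, which was present in 0.384% of 32851 windows of all genes. Those in Cry1 and Per1 include an E-box (CACGTG, 7.15% of windows). Cry1 and Nr1d1 hold the variant CACGTT, read here on the other strand as AACGTG (4.68% of windows). Per1 and Per3 hold D-boxes (TTATGTAA or TTATGCAA, 1.66% of windows), the element bound by DBP, TEF and HLF and by their repressor NFIL3, and Per3 holds 2 of them. Both strands were searched and no matches overlapped. A match is a description of the sequence and not a measured site. The other windows of members held none of these motifs, apart from 1 AACGTG in Cry2.

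Libraries held 5101413 to 9358820 reads assigned to genes, and values are TMM-normalised reads per 1000000 (RPM). Lung markers were abundant, with Sftpc, a surfactant protein, at 21807 ± 8303 in Tsc1-null EV and 19000 ± 2660 in WT EV lungs (SD, n = 3 each). Marco, a macrophage receptor, was low, at 2.23 ± 1.12 in Tsc1-null EV and 0.921 ± 0.787 in WT EV. Libraries of lower likeness to the others were Tsc1-null EV replicate 1 and WT EV replicate 2 (the libraries that stood apart), with median correlations to the rest of 0.942 and 0.963, against 0.980 to 0.982 elsewhere. Their nuclear RNA Malat1 stood at 30060 and 15673, against 1609 to 2819. For the members and for the output factors and feedback regulators named here, log2 folds are also given without both of them where these libraries held the extreme values.

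**Figure D1:**
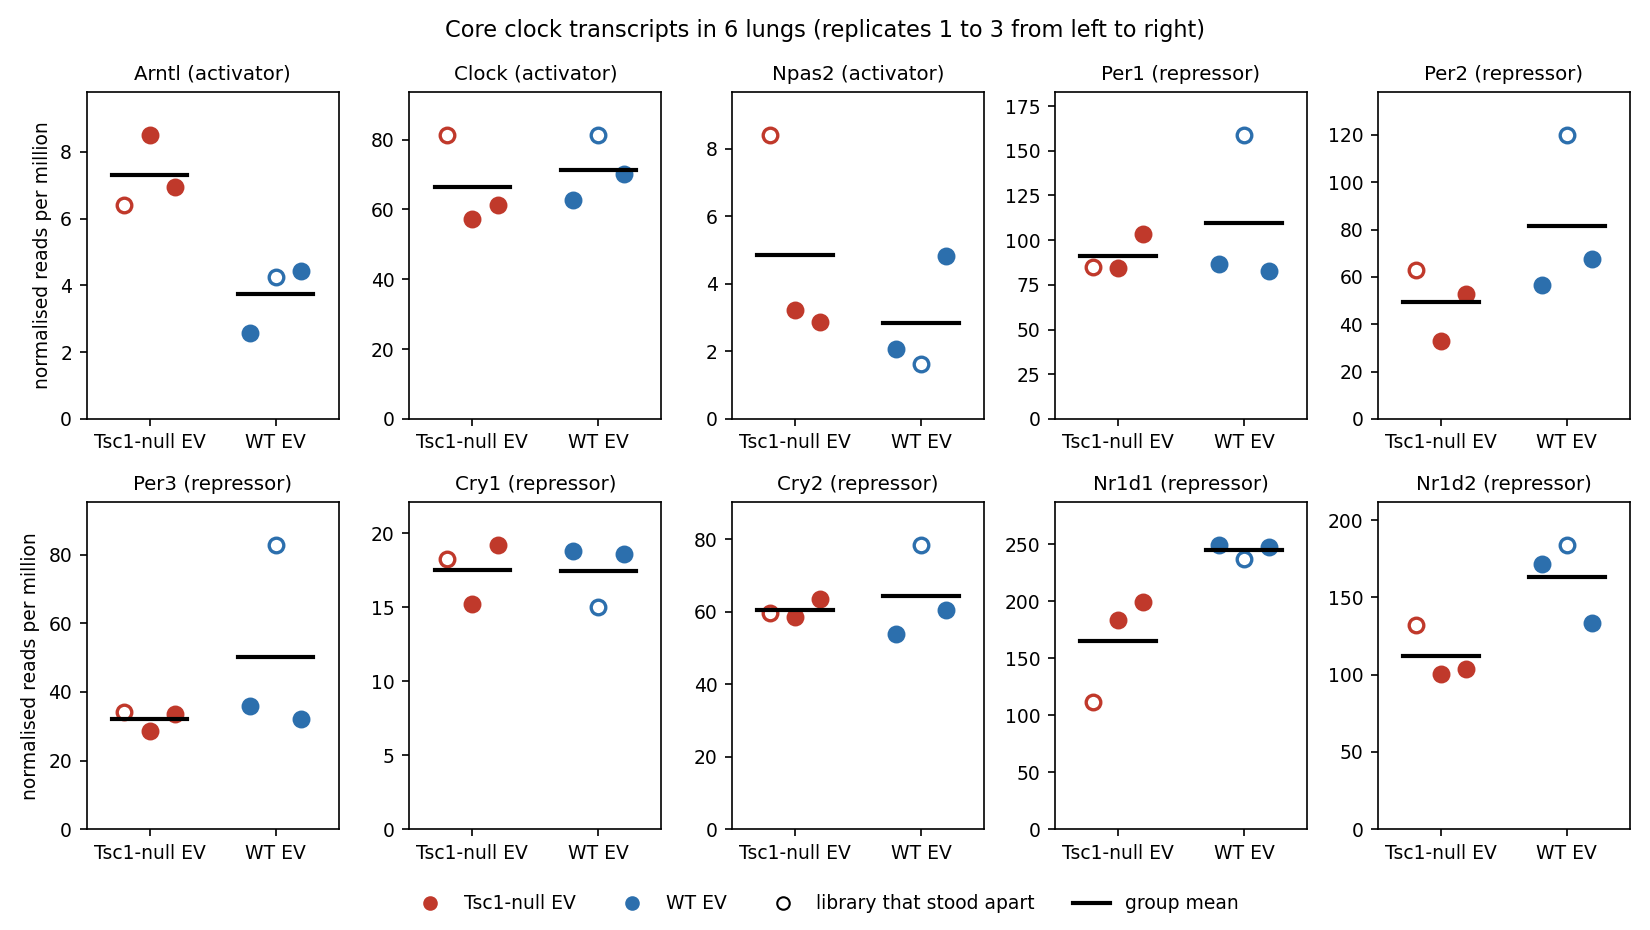
Normalised RPM of the 10 core clock transcripts, with Tsc1-null EV lungs left and WT EV lungs right in each panel. Points are single lungs, bars are group means, and open points are the libraries that stood apart. Arntl, Nr1d1 and Nr1d2 are the panels in which the groups do not overlap, and the 3 Per panels each have 1 high WT EV point, replicate 2.

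Across the loop, Arntl was higher in every Tsc1-null EV lung than in every WT EV lung, and Nr1d1 and Nr1d2 were lower in every one. The other 7 members overlapped between the groups. In bulk lung, fewer cells of a type and less RNA per cell cannot be told apart. The members were proposed with results of this contrast known, so their values are a description. limma (log2 of value + 1, Benjamini-Hochberg adjustment over 14159 genes, threshold 0.05) passed 0 of the 10 members, where it passed 0% of all genes. At an unadjusted p under 0.05 stood 3 of the 10 and 930 of 14159. edgeR and DESeq2 on whole reads recovered from the table also passed 0 of the 10, although DESeq2 gave no adjusted p for Arntl and Npas2. The 3 of 10 members without overlap stand beside 13.1% of all genes. By direction this was 1 member higher beside 6.86% of all genes and 2 lower beside 6.22%. The median log2 fold was -0.16 over the members and -0.02 over all genes.

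Arntl (chr7:113207465-113314126, plus strand of mm10, GENCODE M21), the activator without which the loop stops, stood at 6.41, 8.52 and 6.96 normalised RPM in Tsc1-null EV replicates 1 to 3 and at 2.56, 4.26 and 4.44 in WT EV replicates 1 to 3. The lowest Tsc1-null EV lung lay above the highest WT EV lung. Means were 7.30 ± 1.09 in Tsc1-null EV and 3.76 ± 1.04 in WT EV (SD, n = 3 each), a log2 fold of 0.82 ± 0.24 (SE from limma; adjusted p = 0.721). Behind these values were only 32, 79 and 63 reads in Tsc1-null EV and 21, 29 and 36 in WT EV. The exact Poisson 95% interval was 4.39 to 9.06 for Tsc1-null EV replicate 1 and 3.11 to 6.15 for WT EV replicate 3, so the nearest libraries of the groups could not be told apart by counting. Such intervals cover counting error only. The log2 fold was 0.98 without both libraries that stood apart, and 0.62 to 0.93 with any 1 library left out.

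Npas2 (chr1:39193731-39363236, plus strand), the partner of BMAL1 that can stand in for CLOCK, reached 8.42 in Tsc1-null EV replicate 1, with 3.23 and 2.87 in replicates 2 and 3. In WT EV it stood at 2.07, 1.62 and 4.81. The groups overlapped, and 1 Tsc1-null EV library held the high value. The log2 fold of 0.57 ± 0.42 (SE) became 0.17 when Tsc1-null EV replicate 1 was left out and 0.92 when WT EV replicate 3 was. It was below 0 (-0.06) without both libraries that stood apart. Reads numbered 11 to 42 per library.

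Clock (chr5:76209868-76304792, minus strand), whose product pairs with BMAL1, was at 81.2, 57.1 and 61.3 in Tsc1-null EV and 62.7, 81.4 and 70.1 in WT EV lungs. Its highest values were those of the libraries that stood apart, 1 in each group. The log2 fold was -0.11 ± 0.18 (SE). Without both libraries that stood apart it was -0.16, and the Tsc1-null EV lungs then lay below the WT EV lungs without overlap. In that setting 42.3% of all genes had no overlap. Without Tsc1-null EV replicate 1 the remaining Tsc1-null EV libraries lay below all 3 WT EV libraries, in a setting where 29.1% of all genes had no overlap. The log2 fold was then -0.26, but without Tsc1-null EV replicate 2 or WT EV replicate 2 it was -0.01. Per kilobase of the longest coding transcript, Clock was the most abundant activator, at 6.83 ± 1.32 in Tsc1-null EV and 7.33 ± 0.968 in WT EV. Arntl per kilobase was 2.45 ± 0.367 in Tsc1-null EV and 1.26 ± 0.349 in WT EV. Npas2 per kilobase was 1.14 ± 0.733 in Tsc1-null EV and 0.669 ± 0.408 in WT EV, which did not differ from Arntl beyond the spread in WT EV.

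Nr1d1 (chr11:98767932-98775333, minus strand), the REV-ERB alpha gene, stood at 112, 184 and 199 in Tsc1-null EV lungs and at 249.6, 237 and 248 in WT EV lungs. The WT EV lungs were close together, the Tsc1-null EV lungs were spread, and all of these lay below all WT EV lungs. Means were 165 ± 46.5 in Tsc1-null EV and 245 ± 6.72 in WT EV (SD, n = 3 each), a log2 fold of -0.61 ± 0.22 (SE; limma adjusted p = 0.721). Tsc1-null EV replicate 1 held the lowest value, and the log2 fold was -0.35 without it. Without both libraries that stood apart it was -0.38. With 559 to 2046 reads per library, counting error was small. Nr1d1 and Thra share 263 exon bases on opposite strands, 8.55% of the exon bases of Nr1d1, and whether counting used strand is not given in the sources used here. Thra, a thyroid hormone receptor gene, was at 54.1, 55.9 and 57.1 in Tsc1-null EV and 60.9, 70.0 and 56.9 in WT EV (log2 fold -0.16 ± 0.14, SE).

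Nr1d2 (chr14:18204054-18239127, minus strand), the REV-ERB beta gene, stood at 132, 100.2 and 104 in Tsc1-null EV and at 171, 184 and 133 in WT EV lungs. The groups did not overlap, but Tsc1-null EV replicate 1 and WT EV replicate 3 nearly met. Means were 112 ± 17.6 in Tsc1-null EV and 163 ± 26.4 in WT EV (SD, n = 3 each), a log2 fold of -0.53 ± 0.18 (SE; limma adjusted p = 0.721). It was -0.56 without both libraries that stood apart and -0.44 to -0.67 with any 1 library left out. After quantile normalisation the groups overlapped at Nr1d2. Per kilobase, Nr1d1 was the most abundant of the 10 members in both groups, at 60.6 ± 17.1 and 89.95 ± 2.47, followed by Nr1d2 at 24.0 ± 3.77 and 34.95 ± 5.66 (Tsc1-null EV and WT EV in each case).

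Markers of other cell types also differed in mean between the groups, in both directions, but every summed range given here overlapped. All 6 endothelial markers had a log2 fold below 0, and their summed level ran over 1269.6 to 2402 in Tsc1-null EV and 1907 to 2530.1 in WT EV lungs. Their mean log2 difference from WT EV was -0.79, -0.37 and -0.01 in Tsc1-null EV replicates 1 to 3. In WT EV replicates 1 to 3 it was 0.08, -0.21 and 0.14. All 5 heart muscle markers were below 0 as well, summing to 153 to 427 in Tsc1-null EV and 357 to 523 in WT EV. The 4 adipocyte markers were below 0 too, summing to 11.4 to 34.9 in Tsc1-null EV and 24.8 to 92.4 in WT EV. Above 0 were all 5 ciliated markers, with sums of 800.1 to 1440.2 in Tsc1-null EV and 618 to 861 in WT EV, all 3 club cell markers (median log2 fold 0.65) and all 6 alveolar type 2 markers (median 0.42). Without both libraries that stood apart, the ciliated log2 folds ran from -0.12 (Tppp3) to 0.51 (Dnah9) and the club folds from 0.11 to 0.21. Tppp3 and the heart muscle marker Actc1 (0.08) thereby turned direction, and the other markers of these lists kept theirs. No marker of these lists was at 0 in any library. Their part in the Nr1d1 and Nr1d2 values was not tested.

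The Per genes, whose proteins carry the negative feedback, were set apart by 1 WT EV lung. Per1 (chr11:69095217-69109960, plus strand), which is also switched on directly by glucocorticoids and by CREB signalling, stood at 85.2, 84.3 and 104 in Tsc1-null EV and at 86.7, 159 and 82.5 in WT EV lungs. Per2 (chr1:91415982-91459324, minus strand) stood at 62.9, 32.8 and 52.8 in Tsc1-null EV and at 56.7, 120.1 and 67.7 in WT EV lungs. Per3 (chr4:151003652-151044665, minus strand), which is dispensable for rhythm in mice, stood at 34.1, 28.6 and 33.5 in Tsc1-null EV and at 36.0, 82.9 and 32.1 in WT EV lungs. In all 3 genes WT EV replicate 2 was the highest of the 6 libraries, and the groups overlapped.

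The log2 folds were -0.20 ± 0.25 for Per1, -0.68 ± 0.32 for Per2 and -0.51 ± 0.32 for Per3 (SE). Without WT EV replicate 2 they were 0.10, -0.37 and -0.09, so that the direction of Per1 turned. Without both libraries that stood apart they were 0.14, -0.56 and -0.13, and the groups then did not overlap at Per2, where 42.3% of all genes did not. Of the 3 genes, Per2 was the one whose 2 lowest values were both in Tsc1-null EV lungs. In Tsc1-null EV replicate 1, the other library that stood apart, Per1, Per2 and Per3 were at 85.2, 62.9 and 34.1. The part of what set these libraries apart in the Per values was not tested. The summed mesothelial markers ran over 53.3 to 403 in Tsc1-null EV and 364 to 988 in WT EV, with the top value in WT EV replicate 2. All 5 had a log2 fold below 0 and none was at 0. Without both libraries that stood apart, their folds ran from -0.61 (Gpm6a) to 0.11 (Msln), and Msln alone was above 0. The part of these markers in the Per values was not tested.

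The cryptochrome genes, which encode the strongest repressors of the BMAL1 pair, lay close together in the groups. Cry1 (chr10:85131700-85185064, minus strand) stood at 18.2, 15.2 and 19.2 in Tsc1-null EV and at 18.8, 15.0 and 18.6 in WT EV lungs. Its log2 fold was 0.01 ± 0.18 (SE), with both groups spread alike. Cry2 (chr2:92403646-92434043, minus strand) stood at 59.7, 58.7 and 63.5 in Tsc1-null EV and at 53.8, 78.5 and 60.5 in WT EV lungs, a log2 fold of -0.07 ± 0.17 (SE). The highest Cry2 value was again that of WT EV replicate 2, and without it the log2 fold was 0.09. Per kilobase, Nr1d1 and Nr1d2 were followed by Per1 at 19.5 ± 2.32 and 23.4 ± 9.21 and Cry2 at 15.3 ± 0.642 and 16.2 ± 3.21, and then by Per2 at 8.49 ± 2.63 and 13.97 ± 5.80 (Tsc1-null EV and WT EV in each case, SD). Cry1, at 5.80 ± 0.693 and 5.77 ± 0.709, and Per3, at 5.34 ± 0.503 and 8.39 ± 4.71, did not differ from each other beyond their spread. An antisense transcript, D930015M05Rik, covers 4.67% of the exon bases of Cry2. Apart from these overlaps, at most 5.13% of the 50-base words of any member occur in transcripts of another gene. The effect of shared words on these values was not tested.

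**Figure D2:**
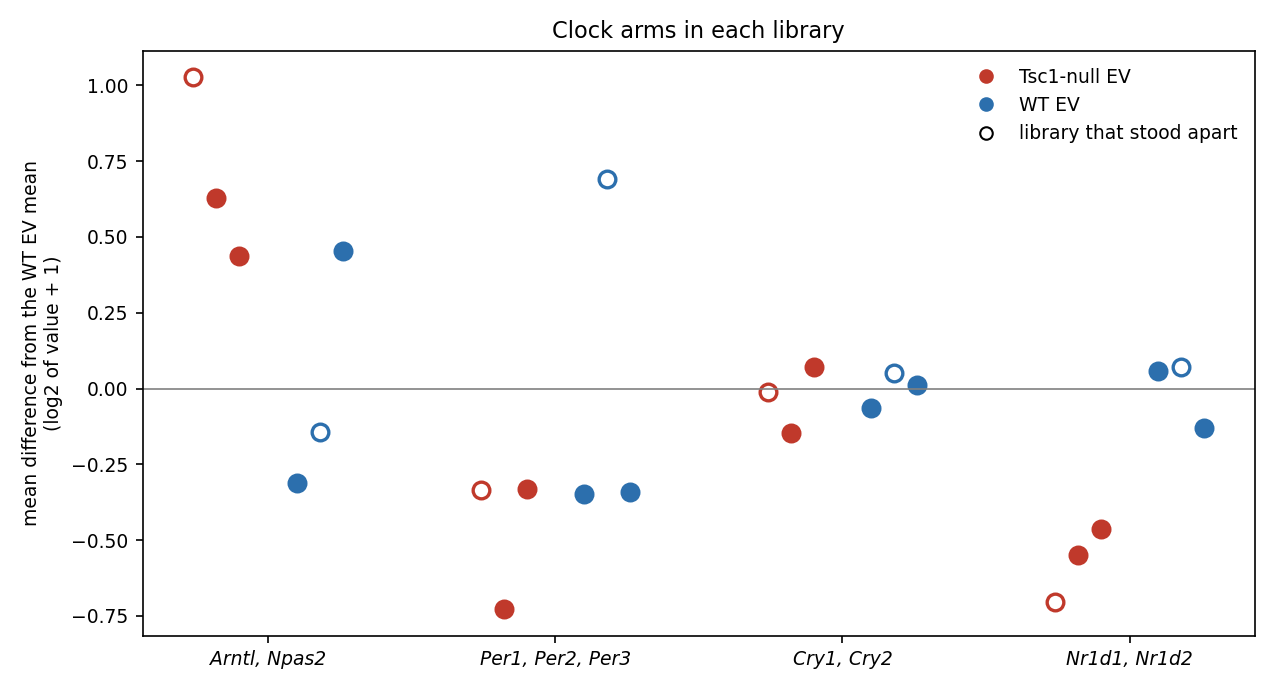
Mean difference of each arm of the loop from its WT EV mean, on the log2(value + 1) scale, for each lung. Tsc1-null EV lungs are left of WT EV lungs, and open points are the libraries that stood apart. The Nr1d arm lies at -0.46 to -0.70 in Tsc1-null EV lungs and at -0.13 to 0.07 in WT EV lungs, while the Cry arm stays within -0.15 and 0.07 in all 6.

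As a description of the phase that the levels would imply, the mean log2 level of the 3 activators minus that of the 7 repressors was taken in each library. This contrast was -1.79, -2.05 and -2.40 in Tsc1-null EV replicates 1 to 3 and -2.99, -3.24 and -2.40 in WT EV replicates 1 to 3. Its mean was -2.08 ± 0.31 in Tsc1-null EV and -2.88 ± 0.43 in WT EV (SD, n = 3 each), a difference of 0.80. Tsc1-null EV replicate 3 and WT EV replicate 3 had the same value at this precision, so the groups met. The repressor side did not overlap, with a mean log2 level of 5.78 to 6.04 in Tsc1-null EV and 6.11 to 6.62 in WT EV, but its edges were close. The activator side did overlap, at 3.64 to 4.16 in Tsc1-null EV and 3.15 to 3.71 in WT EV. Without both libraries that stood apart the difference in the contrast was 0.47, and the groups overlapped, in a setting where 42.3% of all genes had no overlap. With all 6 libraries, the difference was 1.07 with Clock left out of the activators and 0.94 with Cry1 and Cry2 left out of the repressors. The groups did not overlap in either of these makeups. Clock, Cry1 and Cry2 had the smallest fold sizes of the members, so leaving them out raises the difference by construction. No p is given for scores over these members.

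The arms of the loop differed in how they followed the group label. The mean log2 difference from WT EV for Arntl and Npas2 was 1.03, 0.63 and 0.44 in Tsc1-null EV replicates 1 to 3 and -0.31, -0.14 and 0.46 in WT EV replicates 1 to 3. For the Nr1d pair it was -0.70, -0.55 and -0.46 in Tsc1-null EV and 0.06, 0.07 and -0.13 in WT EV. The Nr1d pair separated the groups, and the activator pair was crossed by WT EV replicate 3. For the 3 Per genes it was -0.33, -0.73 and -0.33 in Tsc1-null EV and -0.35, 0.69 and -0.34 in WT EV, so that WT EV replicates 1 and 3 lay level with Tsc1-null EV replicates 1 and 3, and Tsc1-null EV replicate 2 lay below them.

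The ratio of normalised Nr1d1 to Arntl reads, whose size also depends on transcript length and is compared here only between libraries, was 17.5, 21.5 and 28.7 in Tsc1-null EV and 97.4, 55.6 and 55.8 in WT EV. The groups did not overlap, which follows from the lack of overlap in each of these genes. The mean ratio in Tsc1-null EV was 0.324 times that in WT EV. The ratio of Per2 to Arntl was 9.81, 3.85 and 7.59 in Tsc1-null EV and 22.1, 28.2 and 15.3 in WT EV, also without overlap. The ratio of Per2 to Nr1d1, in which no activator enters, was 0.562, 0.179 and 0.265 in Tsc1-null EV and 0.227, 0.507 and 0.274 in WT EV, with overlap. Put as phase, the Nr1d1 and Arntl values place the Tsc1-null EV lungs toward the side of the cycle on which Arntl is high and Nr1d1 low. This restates the values of these genes, and the fold of Arntl had been seen when the members were chosen. Apart from Arntl, Nr1d1 and Nr1d2, the members overlapped between the groups. All lungs were assessed 72 h after the cells, so a shift in phase cannot be told apart from a change in amplitude or in mean level. Both ratios to Arntl carry the counting error of its 21 to 79 reads. The labels give no hour of collection or light schedule, so no hour was assigned to any library. The sample numbers 1351 to 1353 are all Tsc1-null EV and 1348 to 1350 all WT EV, and an order of collection that followed them cannot be told apart from the vesicle genotype.

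**Figure D3:**
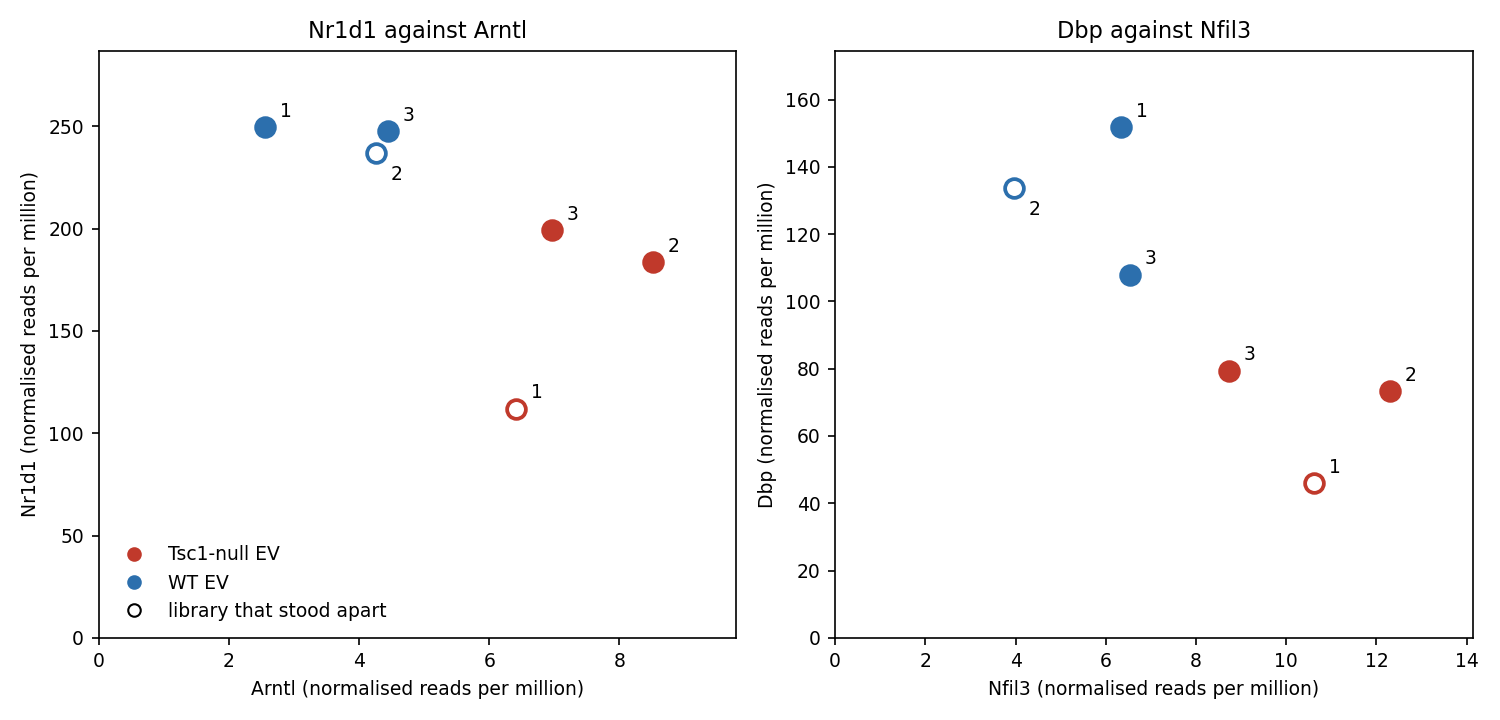
Nr1d1 against Arntl (left) and Dbp against Nfil3 (right) in normalised RPM, 1 point per lung with its replicate number. Open points are the libraries that stood apart. In both panels the 3 Tsc1-null EV lungs lie below and to the right of the 3 WT EV lungs.

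The output factors of the clock showed the same opposition. DBP, TEF and HLF activate genes through D-boxes and NFIL3 represses them there. Dbp was at 45.9, 73.3 and 79.4 in Tsc1-null EV and at 152, 134 and 108 in WT EV lungs, and Hlf at 18.04, 30.1 and 39.9 in Tsc1-null EV and 56.1, 61.9 and 51.5 in WT EV lungs. Nfil3 was at 10.6, 12.3 and 8.73 in Tsc1-null EV and at 6.34, 3.97 and 6.54 in WT EV lungs. None of these 3 genes overlapped between the groups. Their folds and those of the members come from the same 6 libraries and are not separate evidence. The ratio of Dbp to Nfil3 reads, which restates these genes, was 4.32 to 9.10 in Tsc1-null EV and 16.5 to 33.7 in WT EV lungs. Tef overlapped, at 175, 153 and 201 in Tsc1-null EV and 183, 360 and 205 in WT EV lungs, with the high value in WT EV replicate 2, as for the Per genes. Without both libraries that stood apart, the log2 fold was -0.74 for Dbp and -0.62 for Hlf, against -1.0 and -0.99 with all 6, and 0.61 for Nfil3, against 0.82. For Tef it was -0.14, against -0.44.

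**Figure D4:**
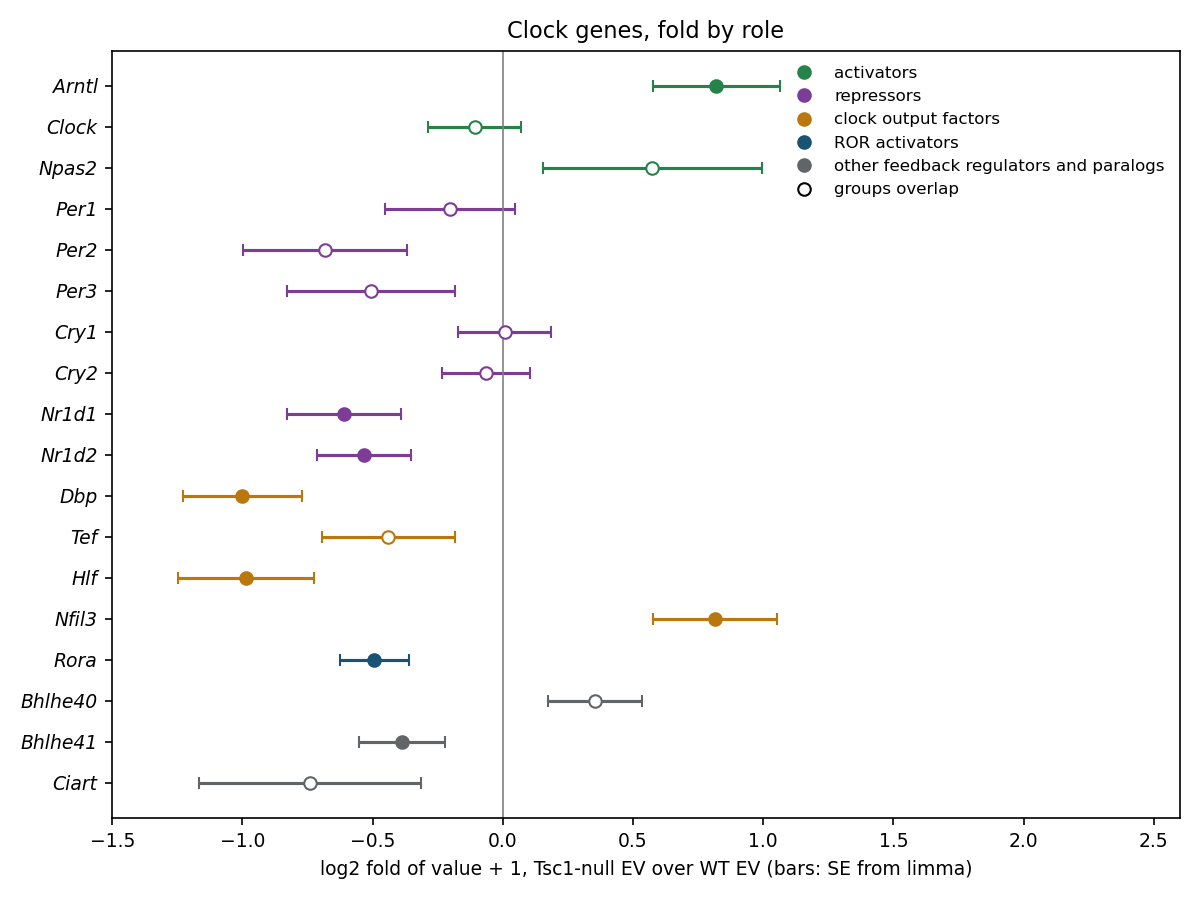
Tsc1-null EV to WT EV difference in log2(value + 1), with its SE from limma, for the core clock genes and 4 output factors, Rora and 3 further feedback regulators. Filled points are genes whose groups did not overlap. Arntl and Nfil3 lie near 0.82 and Hlf at -0.99 beside Dbp, with Cry1 and Cry2 close to 0.

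Rora, which encodes an activator that opposes REV-ERB at the RORE, did not overlap. It stood at 76.4, 66.9 and 77.8 in Tsc1-null EV and at 105, 103 and 103 in WT EV lungs, a log2 fold of -0.49 ± 0.13 (SE; limma adjusted p = 0.721). Of the other feedback regulators, Bhlhe41, which encodes the E-box repressor DEC2, was lower in all 3, at 21.7 ± 3.21 in Tsc1-null EV and 28.6 ± 2.00 in WT EV. Its paralog Bhlhe40 overlapped, at 80.3 ± 1.12 in Tsc1-null EV and 63.7 ± 15.3 in WT EV. Ciart, which encodes a repressor of the BMAL1 pair, overlapped at 6.93 ± 3.30 in Tsc1-null EV and 12.4 ± 7.01 in WT EV, with 20.4 in WT EV replicate 2 (log2 fold -0.74, and -0.62 without both libraries that stood apart). Arntl2, the paralog of Arntl, was below the minimum level.

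The modifiers of clock proteins and the cofactors showed smaller folds. Of 11 kinases, ligases and proteases tested, 7 had a log2 fold above 0 and 4 below, with a median of 0.07. Csnk1d and Csnk1e encode casein kinases that mark PER proteins for decay, and they stood on opposite sides. Csnk1d was at 156 ± 1.82 in Tsc1-null EV and 141 ± 6.44 in WT EV, and Csnk1e at 143 ± 14.6 in Tsc1-null EV and 176 ± 5.43 in WT EV, with no overlap for either. All 10 cofactors overlapped between the groups, with a median log2 fold of -0.0037. The largest fold sizes were those of Kmt2a, a histone methyltransferase (-0.28), and Sirt1, a deacetylase (-0.20). Of 7 clock-controlled genes of many tissues, Tspan4 alone had no overlap, at 62.0 ± 23.6 in Tsc1-null EV and 95.8 ± 18.2 in WT EV. In all 42 tested genes of these clock lists, 0 passed limma, 8 had an unadjusted p under 0.05, beside 6.57% of all genes, and 10 (3 higher, 7 lower) had no overlap, beside 13.1% of all genes. Their median log2 fold was 0.01. Dbp, Hlf and Nfil3 are among the 42, the 8 and the 10. The folds of these genes had been seen when the members were chosen, so these counts are a description.

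The clock also takes input from hormones, neural signals and temperature, so genes that mark these inputs are given beside it. Of 9 glucocorticoid-induced genes, including Per1, 6 had a log2 fold above 0, and the median was 0.10. Fkbp5, a chaperone gene used as a glucocorticoid readout, stood at 19.8, 48.1 and 87.3 in Tsc1-null EV and at 27.0, 45.9 and 30.1 in WT EV lungs, with overlap. Lcn2, an innate defence gene, was the member of that list without overlap (log2 fold 1.44 ± 0.26, SE). All 9 immediate early genes overlapped, with a median of 0.08, and the largest fold sizes were those of Nr4a1 (0.30 ± 0.25) and Egr1 (-0.24 ± 0.42, SE). Of 5 inducible heat shock genes, Hspa1a and Dnajb1, which encode chaperones under heat shock factor control, had every Tsc1-null EV lung above every WT EV lung (log2 folds 1.95 ± 0.37 and 0.73 ± 0.19, SE), and the median was 0.73. None of these genes passed limma with all 6 libraries. Without both libraries that stood apart, Lcn2 (log2 fold 1.13) and Zbtb16 of the glucocorticoid list (1.22) passed (limma adjusted p = 0.0425 each). They were among 12 genes called higher and 13 lower. Fkbp5 (1.16), Tsc22d3 (0.56), Pdk4 (0.38) and Per1 (0.14) of that list were then also above 0, while Sgk1 (-0.40), Klf9 (-0.21) and Dusp1 (-0.09) were below 0. The immediate early genes were then all below 0, from -1.0 for Egr1 to -0.03 for Junb. The part of these inputs in the values of the clock genes was not tested.

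The genes whose levels ran most like those of a member were sought by Pearson's r over the 6 libraries, among genes with a mean of at least 5. For Arntl the most alike were Slc35d2 (0.99), Poc1a (0.98) and Cib1 (0.97), and the most opposite were Tmem186, Rnf146 and Bcl7b (-0.98 each). For Nr1d1 the most alike were Pacsin2, Tdrp and Gnb4 (0.995 to 0.997), and the most opposite were Rhbdd2, Kcnk12 and Ncs1 (-0.996 to -0.997). Of 11160 genes compared, r was above 0.9 for 42 and below -0.9 for 70 with Arntl, and above 0.9 for 434 and below -0.9 for 335 with Nr1d1. All of these values include Tsc1-null EV replicate 1, the library lowest in Nr1d1, and r was not computed without it. Hlf had an r of 0.97 and Dbp one of 0.94 with Nr1d1. Nfil3 had an r of 0.735 and Dbp one of -0.79 with Arntl.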

How the data were processed

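The authors deposited 1 table of TMM-normalized signal (reads per 1000000, linear scale) for 6 libraries. The submitters' processing notes list Bowtie2 2.1.0, RSEM 1.2.15, edgeR and mm10, with no role or order for any. Annotation, strand setting and filters: not given in the sources used here. In each column all values were whole multiples of 1 step (tolerance 0.002), so whole reads were recovered. Replicates were numbered in accession order. Each library is labelled with a SCID mouse and 1 sample number, and with no other animal identifier. Each was therefore counted as 1 mouse, and p-values measure the spread between these samples. Per the labels no batch is given.

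limma 3.58.1 (R 4.3.3) was fitted to log2(value + 1) of the 14159 genes with a mean of at least 1, using a trend on intensity and two-sided p-values adjusted by Benjamini-Hochberg over all of them. This scale understates folds of low genes such as Arntl and Npas2. The steps were tested on simulated data, in which changed genes had an expected mean above 50 reads. At the adjusted threshold, 45 of 100 genes given a log2 change of 1 were recovered, and 77 of 100 given 2. Changes of the size seen in the members could therefore be missed. Positions, exon overlaps and 50-base words come from GENCODE M21 (mm10, GRCm38), promoter windows from RefSeq. Alternatives were pseudocounts, filters, scalings, variance models, sample weights, edgeR 4.0.16 and DESeq2 1.42.0 on recovered reads, each library left out, and other makeups of the contrast. Leaving out both libraries that stood apart was added after seeing the data.

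The members, lists and alternatives were chosen with earlier results of these data known. All 10 members are named. Genes of other lists are named where their groups did not overlap or, where none did, the 2 with the largest fold. Sftpc, Marco, Tef, Bhlhe40, Ciart, Cxcl5, Nfe2l2, Fkbp5, Zbtb16, Tsc22d3, Pdk4, Sgk1, Klf9, Dusp1, Junb, Tppp3, Actc1 and Msln were named after their values were seen. Some items are not reported here.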

Additional observations from a re-analysis of the deposited data

How the results depend on the processing

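No member passed limma's adjusted threshold under any alternative except sample weights, which ran from 0.213 for Tsc1-null EV replicate 1 to 4.19 for WT EV replicate 3. Tsc1-null EV replicate 2 had a weight of 3.95, and all other libraries had weights below 1. The weighted fit thus rested mostly on Tsc1-null EV replicate 2 and WT EV replicate 3. With these weights 4 members passed: Arntl (log2 fold 0.86), Per2 (-0.90), Nr1d1 (-0.44) and Nr1d2 (-0.48), among 583 genes called higher and 467 lower, against 0 and 0 without weights. Of all 14159 genes, 3955 had an unadjusted p under 0.05 in the weighted limma fit, against 930 without weights. DESeq2 called 8 genes higher and 6 lower, edgeR 0 and 0 (966 at an unadjusted p under 0.05), and limma without both libraries that stood apart 12 and 13. None of these were members. The members without overlap numbered 3 to 5 with 1 library left out (5 if this was Tsc1-null EV replicate 1 or WT EV replicate 3) and 5 without both libraries that stood apart. Fewer libraries separate more often, and 18.8% to 29.1% and 42.3% of all genes had no overlap in these settings, against 13.1% with all 6. The contrast of activators and repressors was 0.62 to 1.04 with 1 library left out, 1.23 with medians over genes and 1.48 in SD units with each gene scaled. Directions turned for Npas2 with sample weights (-0.19) and without both libraries that stood apart (-0.062). They turned for Per1 (0.14), Cry1 (-0.12) and Cry2 (0.10) without both libraries, and for Cry1 with weights (-0.20). With 1 library left out, the log2 fold ran from -0.37 to 0.10 for Per1, -0.093 to 0.10 for Cry1 and -0.18 to 0.086 for Cry2. The causes were not tested. Arntl, Clock, Per2, Per3, Nr1d1 and Nr1d2 kept their direction in all alternatives run. Depth limits Arntl and Npas2, and Npas2 had no value with a minimum mean of 5. No paired analysis was possible because the labels carry no replicate numbers shared between the groups.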

Other observations

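Genes that the clock is known to drive in lung and myeloid cells were looked at beside the loop. Of 7 such genes tested, 5 had a log2 fold above 0, and the median was 0.30, against -0.02 over all genes. Ccl2, a monocyte attractant that BMAL1 holds down in mouse monocytes, stood at 3.41, 5.07 and 2.98 normalised RPM in Tsc1-null EV and at 1.59, 1.47 and 1.73 in WT EV lungs, without overlap (log2 fold 0.87 ± 0.25, SE; limma adjusted p = 0.721). Cxcl5, a neutrophil attractant under clock control in mouse club cells, stood at 12.8, 2.59 and 0.442 in Tsc1-null EV and at 0.976, 0.147 and 0.987 in WT EV lungs, with overlap and with most of the signal in Tsc1-null EV replicate 1. Nfe2l2, which encodes the antioxidant regulator NRF2, overlapped at 226 ± 50.1 in Tsc1-null EV and 184 ± 50.6 in WT EV (SD, n = 3 each).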
